A study of Mus musculus with 18 samples.

Results

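Chromatin sites that carry monomethylation of histone H3 lysine 4 (H3K4me1) without acetylation of lysine 27 (H3K27ac) were examined in mouse cerebral cortex. They were found by merging the overlapping H3K4me1 peaks of 3 animals on chromosomes 1 to 19 and keeping the regions with peaks from at least 2 libraries and no H3K27ac or PolII_S5P peak in any library (overlap of at least 1 bp). This gave 6340 sites out of 62691 merged H3K4me1 regions (10.1%), or 25.3% of the 25061 regions seen in at least 2 libraries. They covered 5.15 Mb. Peak lists from chromatin immunoprecipitation sequencing (ChIP-seq) were available for 15 libraries from frozen cortex of 3 wild-type C57BL/6J female mice aged 14 weeks, numbered 5, 7 and 9, with no treatment. Each animal gave 1 library against each of MBD3, TDG, H3K4me1, H3K27ac and RNA polymerase II phosphorylated on serine 5 (PolII_S5P). The cortex is a mixture of neurons, glia and vascular cells, so a site marked in fewer cells and a site marked more weakly in every cell cannot be told apart. A gene annotation of build mm39, on which all positions are given, was not used here, so marker genes of the tissue were not checked and sites are named by position.

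H3K4me1 is placed at enhancers mainly by the MLL3 and MLL4 methyltransferases and often precedes enhancer activity. H3K27ac is added by CBP and p300 when an enhancer or promoter becomes active, and PolII_S5P marks polymerase at the start of transcription. Regions with H3K4me1 alone are commonly called primed enhancers. MBD3 is a subunit of NuRD, a complex that couples a CHD-family nucleosome remodeller to histone deacetylases, and TDG is a DNA glycosylase that removes oxidized methylcytosine. The name "primed" rests here on the absence of called peaks, and a large share of the sites turned out to lie beside an acetylated site (below), so they are called non-acetylated H3K4me1 sites. The sites were chosen by their H3K4me1, H3K27ac and PolII_S5P peaks, which are therefore described without a test. MBD3 and TDG peaks were not used in the choice.

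The libraries that defined the sites differed in length. On chromosomes 1 to 19 the H3K4me1 lists held 33744, 45575 and 22555 peaks in animals 5, 7 and 9, the H3K27ac lists 57846 to 67877 peaks and the PolII_S5P lists 4351 to 19509. The MBD3 lists held 56738, 61187 and 38821 peaks in animals 5, 7 and 9, and the TDG lists 125, 240 and 934. Read depth is unknown, and the shares below were lowest in animal 9 for MBD3, which also had the shortest MBD3 list.

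Most non-acetylated H3K4me1 sites were seen in 2 animals rather than 3. Peaks from all 3 libraries were present at 1864 sites (29.4%) and from 2 libraries at 4476 (70.6%). Of the 4476, 2549 were seen in animals 5 and 7, 1440 in animals 7 and 9 and 487 in animals 5 and 9, which follows the order of the summed list lengths. Non-acetylated sites made up 18.4% of the H3K4me1 regions present in all 3 libraries, 29.9% of those in 2 libraries, and the equivalent regions in 1 library, 17901 of 37630, made up 47.6%. H3K4me1 regions found in more animals were thus less often free of H3K27ac and PolII_S5P. Non-acetylated sites of 3 libraries were also wider than those of 2, with medians of 931 and 644 bp. The part of width in these shares was not tested. The sites held 5035, 5941 and 3887 H3K4me1 peaks of animals 5, 7 and 9, or 14.9%, 13.0% and 17.2% of the peaks of each list.

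The sites were narrow. Their merged width had a median of 713 bp (quartiles 525 and 989 bp, range 297 to 3989 bp), against 873 bp (quartiles 611 and 1266 bp) at the 15702 H3K4me1 sites of at least 2 libraries that carried H3K27ac in at least 1 library and no PolII_S5P (acetylated H3K4me1 sites), and 1207 bp at the 2568 sites with both H3K27ac and PolII_S5P. Only 107 (1.69%) were 2 kb or wider, compared with 7.08% of acetylated sites and 22.1% of sites with H3K27ac and PolII_S5P. A wider region has more room to overlap an H3K27ac or PolII_S5P peak by 1 bp, and the part of this rule in the widths was not tested. Merging over more libraries widens a region, and with peaks from all 3 libraries the medians were 931 bp for non-acetylated and 1168 bp for acetylated sites. A site rarely held more than 1 H3K4me1 peak of a library. In no animal did more than 2.59% of the marked sites do so, against 3.89% to 7.29% of acetylated sites.

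The strength of H3K4me1 was close to that of acetylated sites. The median fold enrichment of the peaks, as deposited by the authors, was 3.10, 2.98 and 3.18 in animals 5, 7 and 9 at non-acetylated sites and 3.10, 3.04 and 3.19 at acetylated sites. In rank, these medians stood at percentiles 55.9, 57.4 and 51.0 of their lists at non-acetylated sites and 55.9, 59.3 and 54.4 at acetylated sites. Non-acetylated sites were therefore near the middle of each list. The strongest peak reached 6.50, 7.61 and 5.77 at non-acetylated sites and 6.65, 6.63 and 6.50 at acetylated sites, so that it was higher at non-acetylated sites in animal 7 and lower in animals 5 and 9. At sites with both H3K27ac and PolII_S5P the maxima were 9.75, 9.33 and 9.24. Unmarked regions found in 1 library were weaker, with medians of 2.81, 2.70 and 2.96. The number of libraries with a peak at a site went together with rank, since the best peak of sites in 3 libraries had a median percentile of 64.4, 70.6 and 55.1, against 49.3, 51.7 and 41.0 for sites in 2 libraries.

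**Figure D1:**
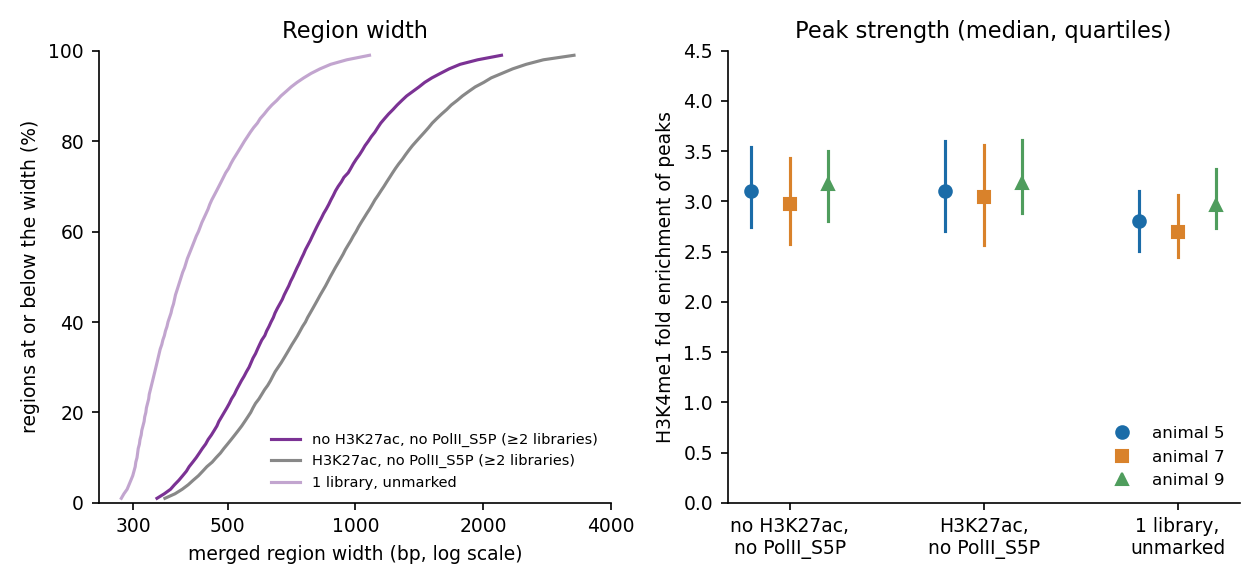
Left, cumulative distribution of merged H3K4me1 region width (bp, log scale) for non-acetylated sites, acetylated sites and unmarked regions of 1 library. Right, median (point) and quartiles (line) of the H3K4me1 fold enrichment of peaks in animals 5, 7 and 9 for the same groups; the width curves are separate, with medians of 713, 873 and 389 bp, while the fold ranges of non-acetylated and acetylated sites nearly coincide.

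The strongest sites with peaks in all 3 animals lay 237 to 2254 bp from H3K27ac. The highest-ranked was chr9:111103974-111104561, where H3K4me1 reached a fold of 5.61 in animal 5, 5.86 in animal 7 and 4.93 in animal 9, and the nearest H3K27ac site lay 2254 bp away. At chr1:9815744-9817575 the fold enrichments were 5.61, 4.91 and 4.83, with H3K27ac at 513 bp. The others were chr11:43325357-43326363 (4.87, 4.79 and 5.34), chr1:155917271-155920468 (4.73, 4.67 and 5.63) and chr3:132388360-132389046 (4.87, 4.54 and 4.86). Those 3 had an H3K27ac site at 338, 237 and 291 bp. None of the 5 carried an MBD3 or TDG peak in any animal, and at 4 of them an MBD3 site lay 241 to 412 bp away. Among all 6340 non-acetylated sites, 14.8% had an MBD3 peak and 0.300% a TDG peak in at least 1 animal. An MBD3 peak lay on or within 1 kb of 46.8% of them. The widest site, chr13:55363246-55367234, measured 3989 bp and had fold enrichments of 4.02, 4.30 and 4.48. It was followed by chr5:115405629-115409391 (3763 bp) and chr6:142704817-142708568 (3752 bp, H3K4me1 in animals 5 and 7 only).

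Non-acetylated did not mean far from acetylated chromatin. The distance from the edge of a site to the nearest H3K27ac site, pooled over the 3 animals, had a median of 1804 bp and quartiles of 510 and 7055 bp. Within 1 kb lay 2448 sites (38.6%), and 1189 (18.8%) had none within 10 kb. Measured against the H3K27ac list of 1 animal at a time, the medians were 2645, 2734 and 4116 bp in animals 5, 7 and 9 (mean 3165 ± 825 bp, SD, n = 3). Polymerase lay farther away, at a median of 6511 bp from the pooled PolII_S5P sites, with 1268 sites (20%) within 1 kb of one. Against the PolII_S5P list of 1 animal at a time the medians were 127715, 8136 and 19826 bp in animals 5, 7 and 9, in the reverse order of the list lengths, and the pooled value was below all of them. For MBD3 the median was 1227 bp, and 2965 sites (46.8%) had an MBD3 peak on them or within 1 kb. Unmarked regions of 1 library lay farther from H3K27ac, with a median of 3549 bp and 26.4% within 1 kb.

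**Figure D2:**
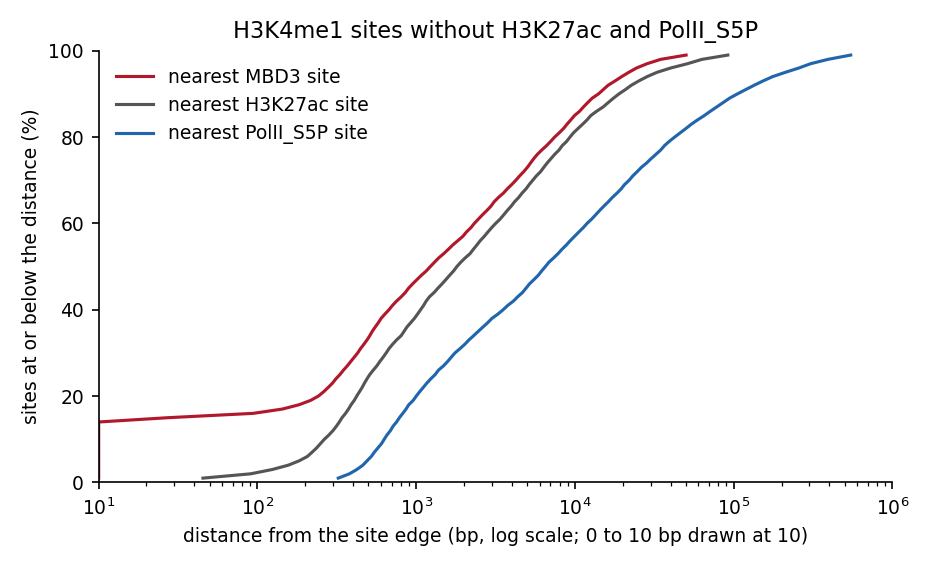
Cumulative share of the 6340 non-acetylated H3K4me1 sites by distance (bp, log scale) to the nearest MBD3, H3K27ac and PolII_S5P site pooled over 3 animals. The MBD3 curve starts at the 14.8% of sites that overlap an MBD3 peak, and the PolII_S5P curve is shifted to the right, with a median of 6511 bp against 1804 bp for H3K27ac.

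The acetylated sites next to them often carried polymerase. The 2448 sites within 1 kb adjoined 2370 H3K27ac sites, of which 61.1% carried a PolII_S5P peak in at least 1 animal, against 15.7% of all 83349 H3K27ac sites. These neighbours were also wider, at a median of 934 bp against 650 bp, and 77.3%, 78.6% and 58.1% of them held an MBD3 peak in animals 5, 7 and 9, against 40.7%, 43.3% and 30.5% of all H3K27ac sites. An H3K4me1 peak on the neighbour itself was present at 31.2%, against 38.9% overall. Sites with non-acetylated H3K4me1 on both sides were few, 72 of the 2370 (3.04%). These figures describe the neighbours and were not tested, and the part of neighbour width in the higher shares was not tested. The H3K27ac sites nearest to, but over 10 kb from, a non-acetylated site had PolII_S5P at 26.5%.

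Some of the sites neighboured each other, while the median distance to the nearest other non-acetylated site was 27061 bp. The nearest other H3K4me1 region of any kind was at a median of 1680 bp. It was another non-acetylated site for 1379 (21.8%), although such sites made up 10.1% of all regions, and an unmarked region of 1 library for 41.8%, against 28.6% of all regions. Acetylated sites were the nearest neighbour of 17.1%, against 25.0% of all regions. With gaps of up to 5 kb, 1770 sites (27.9%) had another beside them, and 191 runs of 3 or more held 664 sites. The longest runs had 7 sites, at chr11:30194717-30216059 and chr16:8537318-8554282, and 6 of the 7 on chromosome 16 had H3K4me1 in all 3 animals. These runs were chosen after their lengths were seen. Across chromosomes the density varied from 2.04 sites per Mb on chromosome 14 to 3.85 on chromosome 11, and the share of H3K4me1 regions of at least 2 libraries that were non-acetylated varied from 20.9% on chromosome 12 to 30.3% on chromosome 5.

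MBD3 was found at a minority of non-acetylated sites and far less often than at acetylated ones. An MBD3 peak lay at 580, 702 and 371 of the 6340 sites in animals 5, 7 and 9, or 9.15%, 11.1% and 5.85%. Over all merged H3K4me1 regions the same MBD3 lists gave 25.8%, 29% and 17.7%, and over those of at least 2 libraries 35.3%, 39.8% and 26.2%. At acetylated H3K4me1 sites the shares were 44.6%, 49.7% and 32.9%. Every library thus had MBD3 less often at non-acetylated sites, and the highest value there was below the lowest at acetylated sites. The means were 8.69 ± 2.64% and 42.4 ± 8.59% (SD, n = 3 libraries each), a difference of -33.7 ± 5.96 percentage points. Both shares come from the same 3 libraries, so they are paired by animal. The paired exact sign-flip test gave p = 0.25, the smallest that 3 pairs allow, and 0.3125 after Benjamini-Hochberg adjustment over the 5 tests made. A two-sided exact permutation test that ignored the pairing gave p = 0.1, the smallest that 3 against 3 allows, and 0.167 after the same adjustment.

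The difference was also present in windows of equal size. In a window of 500 bp around the strongest H3K4me1 summit, MBD3 peaks were present at 7.56%, 9.21% and 4.64% of non-acetylated sites in animals 5, 7 and 9 and at 34.9%, 39.3% and 24.5% of acetylated sites, where all merged regions gave 23.1%, 26% and 15.4%. The difference in these windows was -25.8 ± 5.32 percentage points (SD, n = 3). The exact permutation test gave p = 0.1 (adjusted 0.167) and the paired sign-flip test p = 0.25 (adjusted 0.3125). Within 5 classes of region width it averaged -32.3 points. Among the other kinds of H3K4me1 region, low shares were also found at the unmarked regions of 1 library, with 8.44%, 9.87% and 4.80%, and at the 451 sites with PolII_S5P but no H3K27ac, with 7.54%, 6.87% and 3.55%. At sites with both H3K27ac and PolII_S5P the shares were 48.5%, 56.0% and 39.1%.

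The share of MBD3 followed the number of animals in which H3K27ac was called, which also shows what lies just outside the rule. Among H3K4me1 sites of at least 2 libraries without PolII_S5P, those with H3K27ac in 0, 1, 2 and 3 libraries had MBD3 at 8.69 ± 2.64%, 18.5 ± 5.09%, 26.4 ± 7.52% and 51.6 ± 9.65% (SD, n = 3 libraries each). There were 6340, 2453, 2506 and 10743 such sites. The order was the same in each animal, for example 5.85%, 12.8%, 18.4% and 40.9% in animal 9. Median widths of 713, 752, 790 and 927 bp moved with it, and their part in this order was not tested. At the 1 bp overlap limit, the 141 non-acetylated sites with an H3K27ac site within 100 bp had MBD3 at 7.57% on average over the 3 libraries, and the 178 acetylated sites whose overlap was at most 100 bp at 12.7%.

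**Figure D3:**
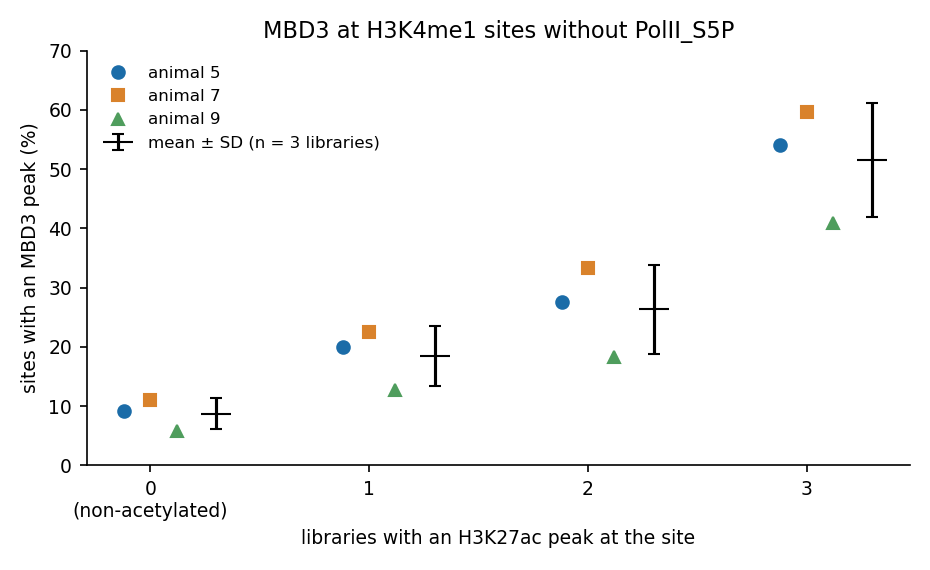
Percent of H3K4me1 sites (at least 2 libraries, no PolII_S5P) with an MBD3 peak, by the number of libraries with an H3K27ac peak at the site; points are the MBD3 libraries of animals 5, 7 and 9 and bars the mean ± SD (n = 3). The non-acetylated sites at 0 lie between 5.85% and 11.1%, and sites acetylated in all 3 animals between 40.9% and 59.7%.

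MBD3 peaks at non-acetylated sites were also smaller and less shared between animals. Their median width was 333, 351 and 314 bp in animals 5, 7 and 9, against 486, 495 and 426 bp at acetylated sites. The median percentile of fold enrichment within the MBD3 list was 44.1, 47.4 and 62.1 at non-acetylated sites and 57.9, 58.9 and 68.8 at acetylated sites. This is a difference of -10.7 ± 3.67 percentiles, lower in 3 of 3 animals, while the groups overlapped across animals. The exact permutation test gave p = 0.3 (adjusted 0.375) and the paired sign-flip test p = 0.25 (adjusted 0.3125). In all, 936 sites (14.8%) had an MBD3 peak in at least 1 animal, where all merged regions gave 35.6%, and 239 (3.77%) had it in all 3, against 13.8% of all merged regions. Those in all 3 animals made up 25.5% of the non-acetylated sites with any MBD3 peak and 45.9% of the acetylated sites with any. Of the sites bound in animal 9, which had the shortest list, 64.4% of the non-acetylated and 81.4% of the acetylated ones were bound in both other animals.

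Within the non-acetylated sites, the share with MBD3 varied with the distance to the nearest H3K27ac site, a split chosen after seeing the values. At the 1189 sites over 10 kb from any H3K27ac site, MBD3 peaks were present at 20.9%, 27.1% and 16.1% in animals 5, 7 and 9. This is slightly below the share over all merged H3K4me1 regions (25.8%, 29% and 17.7%) in each animal. At the 2448 sites within 1 kb of one they were present at 4.37%, 4.66% and 2.08%. The groups did not overlap, with means of 21.4 ± 5.48% and 3.70 ± 1.41% (SD, n = 3 libraries each) and a difference of 17.7 ± 4.30 percentage points (two-sided exact permutation p = 0.1, the smallest that 3 against 3 allows, adjusted 0.167). The 2703 sites in between had 8.32%, 9.84% and 4.74%. MBD3 in all 3 animals was found at 133 (11.2%) of the distant sites and 33 (1.35%) of the near ones. The distant sites were below the pool of all acetylated sites in each animal (44.6%, 49.7% and 32.9%), but not below every part of it. The 2453 acetylated sites with H3K27ac in 1 library had 20.1%, 22.5% and 12.8%, which is lower than at the distant sites in each animal. Those with H3K27ac in 2 libraries had 27.5%, 33.3% and 18.4%, which is higher in each animal. These comparisons were not tested.

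Beyond 1 kb the share was higher in each further bin up to 100 kb. The mean share was 4.45% up to 500 bp and 2.41% from 500 bp to 1 kb. It was 4.89%, 7.27%, 10.9%, 15.3% and 23.4% in the bins ending at 2, 5, 10, 20 and 50 kb. In the 136 sites at 50 to 100 kb it was 35.5%, and in the 62 sites beyond 100 kb also 35.5%, with 38.7%, 41.9% and 25.8% in animals 5, 7 and 9. The median width was 693 bp at distant and 741 bp at near sites, and 23.6% and 35.6% of them had H3K4me1 in all 3 animals. In animals 5, 7 and 9 the median H3K4me1 percentiles were 55.9, 54.7 and 51.0 at distant sites and 58.7, 61.9 and 47.3 at near sites. Distant exceeded near sites in 15 of 15 combinations of animal and width class, by 9.92 to 33.7 points, and in 15 of 15 combinations of animal and class of H3K4me1 rank, by 10.3 to 27.2 points. These combinations divide the sites of the same 3 libraries, so they are not 15 separate results. The parts of width and rank in the difference were not tested. Unmarked H3K4me1 regions of 1 library also had higher shares far from H3K27ac, with 20.7%, 25.1% and 13.4% beyond 100 kb, against 8.41%, 9.76% and 4.62% within 500 bp.

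**Figure D4:**
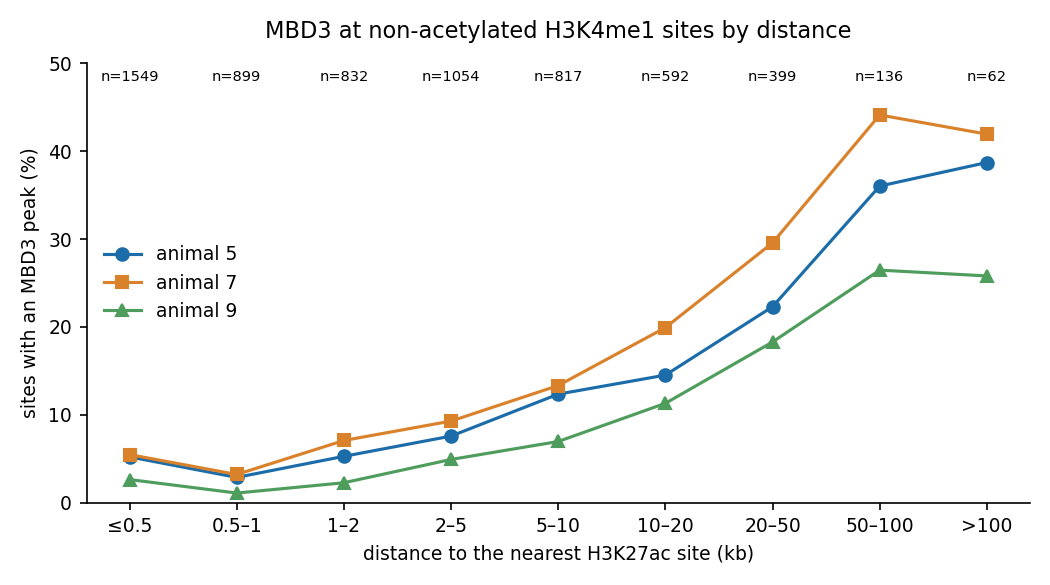
Percent of non-acetylated H3K4me1 sites with an MBD3 peak in animals 5, 7 and 9, by distance to the nearest H3K27ac site pooled over animals (kb); n is the number of sites in a bin. All 3 lines are lowest at 0.5 to 1 kb (1.11% to 3.23%) and reach 26.5% to 44.1% at 50 to 100 kb.

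The position of MBD3 also differed between near and distant sites, but the split partly sets this contrast. It places an H3K27ac site within 1 kb of every near site and none within 10 kb of a distant one. Of the H3K27ac sites beside near sites, 77.3%, 78.6% and 58.1% held an MBD3 peak in animals 5, 7 and 9. Their part in the positions below was not tested. Around the H3K4me1 summit of distant sites, MBD3 summits were densest near the centre, with an average of 18.6, 23.3 and 14.6 summits per 1000 sites and 100 bp bin within 500 bp in animals 5, 7 and 9, against 2.02, 2.27 and 0.757 at 1.5 to 2 kb. At near sites the order was turned round, with 3.35, 3.43 and 1.67 within 500 bp and 22.2, 21.7 and 17.4 at 1.5 to 2 kb, and the density was highest between 1 and 1.5 kb, at 33.6, 34.0 and 25.6. An MBD3 peak lay beside the site, within 1 kb but not on it, in 70.8% of near and 10.1% of distant sites. When a distant site did overlap an MBD3 peak, the MBD3 summit was inside the site in 76.6%, 77.0% and 74.5% of cases, against 57.0%, 56.1% and 60.8% for near sites. For the sites in between it was 77.8%, 83.1% and 84.4%, higher than for distant sites in each animal.

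At acetylated sites, MBD3 summits were spread more widely around the H3K4me1 summit than at non-acetylated sites. The median offset between the MBD3 summit and the strongest H3K4me1 summit was 277, 267 and 273 bp at distant sites in animals 5, 7 and 9 and 401, 388 and 394 bp at acetylated sites. Over all non-acetylated sites it was 275.5, 257 and 251 bp, and at near sites 373, 360 and 350 bp. The small offset was therefore not particular to distant sites. Within 250 bp lay 45.8%, 46.0% and 45.6% of the MBD3 peaks of distant sites and 31.5%, 32.6% and 29.4% of those of acetylated sites. Over all non-acetylated sites these shares were 47.1%, 48.7% and 49.9%. Acetylated sites are wider, and the part of width in this offset was not tested. At distant sites the density per 1000 sites and bin was higher within 200 bp of the H3K4me1 summit than at 300 to 600 bp in each animal, at 20.2 against 15.4 in animal 5, 25.4 against 19.2 in animal 7 and 14.5 against 11.4 in animal 9. At acetylated sites it was 31.7 against 33.9 in animal 5, 37.6 against 36.7 in animal 7 and 20.3 against 28.6 in animal 9, so the direction was not the same in all 3 animals.

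**Figure D5:**
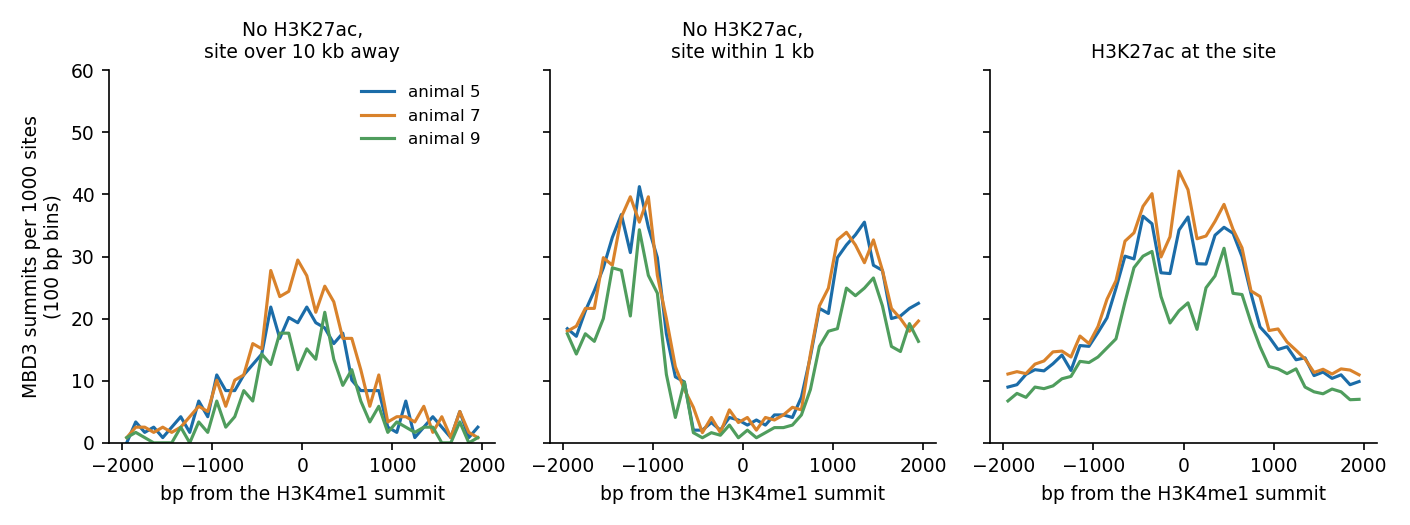
MBD3 summits per 1000 sites in 100 bp bins within 2 kb of the strongest H3K4me1 summit, for non-acetylated sites over 10 kb from H3K27ac, non-acetylated sites within 1 kb of H3K27ac and acetylated H3K4me1 sites, with 1 line per animal. The distant sites are highest within 500 bp of the summit, the near sites are low at the centre (1.67 to 3.43 within 500 bp) and high at 1 to 1.5 kb, and the acetylated sites are high throughout the central 500 bp.

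The share with MBD3 also varied with H3K4me1 rank and width, which was not tested. Of 5 classes by mean H3K4me1 percentile, the highest had MBD3 at 6.57%, 9.18% and 3.24% in animals 5, 7 and 9, and the lowest at 10.9%, 12.05% and 8.19%. The highest class held 598 near and 194 distant sites and the lowest 521 near and 244 distant sites, and the part of distance in these shares was not tested. By width the end classes stood the other way, with 10.7%, 11.9% and 6.40% in the widest of 5 classes and 6.37%, 9.04% and 4.17% in the narrowest. The order was not steady, as the class next to the widest was highest, with 11.6%, 13.4% and 7.16%. Sites with H3K4me1 in all 3 animals had MBD3 at 8.80%, 9.71% and 5.26% in animals 5, 7 and 9, and those with it in 2 animals at 9.29%, 11.6% and 6.10%, which is lower in 3 of 3 animals and was not tested.

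A few non-acetylated sites carried MBD3 peaks among the strongest of their lists. Of all MBD3 peaks at these sites, 7.82%, 7.58% and 10.7% were in the top 10% of the lists of animals 5, 7 and 9. At acetylated sites these shares were 15.7%, 16.3% and 19.4%. The best non-acetylated site was chr13:56844595-56846147, where MBD3 reached a fold of 27.6 in animal 5, 33.0 in animal 7 and 33.3 in animal 9. Next came chr12:78047898-78048629 (33.2, 27.03 and 21.7) and chr15:59825946-59826400 (21.2, 23.5 and 22.2). At chr18:42955919-42957324 the folds were 19.6, 24.8 and 24.2, and at chr8:9277020-9277405 they were 31.5, 16.6 and 27.1. Each of these peaks lay at or above percentile 97.1 of its list. The first 2 had a PolII_S5P site 21 and 23 bp from their edge. The chromosome 15 and chromosome 8 sites lay 297 and 190 bp from H3K27ac and 305426 and 536419 bp from PolII_S5P, and the chromosome 18 site lay 14148 bp from H3K27ac and 14057 bp from PolII_S5P.

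The sites farthest from H3K27ac had no MBD3 peak on them, although distant sites as a group had the most (32.7% in at least 1 animal). They were chr13:77857539-77858190, 383686 bp from H3K27ac, with H3K4me1 fold enrichments of 2.51, 4.17 and 3.46, chr15:11398033-11399154 at 346210 bp, with 4.18, 3.91 and 4.80, and chr8:115539283-115540242 at 340010 bp, called in animals 5 and 7 with 2.66 and 3.26. A PolII_S5P site lay 680 and 306 bp from the first and second, with an MBD3 site at 531 and 286 bp. The third had its nearest PolII_S5P site at 208254 bp.

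TDG was almost absent from non-acetylated H3K4me1 sites. TDG peaks lay at 0, 1 and 18 of the 6340 sites in animals 5, 7 and 9, where all merged H3K4me1 regions gave 0.0335%, 0.0319% and 0.628%, and those of at least 2 libraries 0.0758%, 0.0519% and 1.23%. In animal 5, 0 of 6340 sites allows a share of up to 0.0473% when set at 3 counts, and the exact 95% binomial upper limit is 0.0582%. In animal 9 the share was 0.284% (exact 95% binomial interval 0.168 to 0.448%, which covers counting error only). TDG lay at 0, 0 and 199 of the 15702 acetylated sites, which is 1.27% (1.10 to 1.45%) in animal 9. Over the 3 animals the difference of -0.323 ± 0.572 percentage points was smaller than the spread between libraries (exact permutation p = 1, adjusted 1). In animals 5 and 7, the TDG peaks at H3K4me1 regions of at least 2 libraries were at sites with PolII_S5P, except for 1 at a non-acetylated site. With 125 and 240 TDG peaks on these chromosomes, a difference between non-acetylated and acetylated sites was not detectable in animals 5 and 7.

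The 19 non-acetylated sites with TDG (0.300%, against 0.665% of all merged regions) each had it in 1 animal. Of these, 7 carried an MBD3 peak in at least 1 animal and 4 in all 3, and 12 carried none. Among all 6340 non-acetylated sites, 14.8% carried one in at least 1 animal and 3.77% in all 3. Over all merged regions these shares were 35.6% and 13.8%. The median distance of the 19 sites to H3K27ac was 8872 bp (range 297 to 268190 bp). H3K4me1 in all 3 animals was present at 4 of them, against 29.4% of all non-acetylated sites. TDG fold enrichment in animal 9 ran from 3.51 to 6.70 with a median of 4.47, which is also the median of that TDG list on chromosomes 1 to 19. The highest lay at chr7:98688823-98689419, with a TDG fold of 6.70, and a neighbouring site at chr7:98689559-98690311 had 5.11. The next were chr19:16122410-16122934 (5.75), chr2:62473943-62474526 (5.11) and chr9:21287902-21291100 (5.11). Of these 5 sites, the chromosome 2 site had an MBD3 peak, in animal 5, and the others had none.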

How the data were processed

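There was 1 peak list for each of 15 ChIP-seq libraries. The 3 inputs are not analysed here. Per the submitters' processing notes, the tools were MACS2 2.2.7.1, Picard 2.18.29, SAMtools 1.16.1, Trim Galore 0.6.7 and bcl2fastq 2.20. The same notes list builds mm39 and hg38. The aligner, and any control for the calls, is not given in the sources used here. Per peak, the authors deposited the fold enrichment (a ratio), the −log10 of the p-value, that of the q-value, the summit position and a whole-number score. The MBD3 and TDG lists write unplaced contigs in another form than the other lists. The fold was used only to describe or rank peaks within a list.

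Peaks were merged and compared with Python 3.11.15, numpy 2.4.6 and pandas 2.3.3, checked on simulated lists, and drawn with matplotlib 3.10.9. Binomial intervals used scipy 1.17.1. Distances run from edge to edge, with adjoining intervals at 1 bp. Libraries, not sites, are the replicates, and they come from separate animals. The compared shares are measured in the same libraries, so they are paired by animal. The main test is the unpaired exact permutation test, which ignores this pairing, and the paired sign-flip test is an alternative. The sites, comparisons and alternatives were chosen with earlier results of these data known, and the split by distance to H3K27ac after seeing its values. Named sites follow a written rule: the 5 strongest in 3 animals, the 3 widest, the 3 farthest from H3K27ac, the 5 with the strongest MBD3 in 3 animals and the 5 with most TDG. Planned results on genes, marker lists and sequence need an mm39 genome or annotation and were not run.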

Additional observations from a re-analysis of the deposited data

Results flagged for a closer look

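Chromosome X, which the definition of the sites leaves out, also held H3K4me1 regions of at least 2 libraries without H3K27ac or PolII_S5P. There were 11 of them among the 47 H3K4me1 regions of at least 2 libraries on chromosome X. On the chromosomes used in the definition they were 6340 of 25061 (25.3%), so the count on chromosome X does not stand out as a share. Each of those chromosomes held 654 or more H3K4me1 regions of at least 2 libraries, and the reason for the few on chromosome X was not tested. Chromosome Y had 0, and the mice were female. MBD3 peaks lay at 0, 0 and 1 of the 11 in animals 5, 7 and 9. The regions came to attention as signal in data outside the main measurement.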

How the results depend on the processing

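Of 122 values under alternatives, 19 values without a test moved by more than the spread between libraries or, for counts, 1.5 times. Only differences could reverse in sign, and 0 did, while the TDG difference kept its sign in 14 of 15 alternatives. No tested difference could pass the threshold of 0.05 under any setting, since the smallest exact p is 0.1, or 0.333 with 1 animal left out, so only direction and size are compared. The MBD3 difference from acetylated sites stayed negative in 15 of 15 alternatives (-45.0 to -22.4 points), that between distant and near sites positive in 14 of 14 (13.4 to 21.6). These alternatives reuse the same libraries, and the split by distance was chosen after seeing its values, so they are not separate tests. The difference by distance could not be given when peaks within 1000 bp counted as present, which leaves no near sites. With the replicate block (paired by animal) the differences are the same by construction (-33.7 and 17.7 points), with exact p = 0.25 for both, the smallest that 3 pairs allow. With a −log10 q of at least 5 for H3K4me1 there were 1094 sites, with MBD3 at 5.15%, a width of 831 bp, a distance of 696 bp to H3K27ac and an H3K4me1 percentile of 87.9. With that limit for H3K27ac and PolII_S5P there were 9450 sites against 6340, MBD3 lay at 12.2% and the distance was 3201 bp. Counting H3K27ac or PolII_S5P within 1000 bp as present left 3735 sites, with MBD3 at 12.1% and a distance of 5207 bp. Requiring all 3 libraries left 1864 sites, with a width of 931 bp and a percentile of 62.4. Merging within 500 bp gave a width of 802 bp, H3K4me1 lists of equal length 3856 sites and a percentile of 65.6, and H3K27ac sites of at least 2 libraries a distance of 3212 bp. Leaving out 1 animal, with peaks required from both others, gave 2894 to 4762 sites and MBD3 differences of -39.9 to -35.1 points. The TDG difference was 0 without animal 9 and -0.793 points without animal 7. It was -0.0659 points with TDG peaks of a −log10 q of at least 5 and -0.00222 with TDG lists of equal length. The unknown read depth limits any statement on absent peaks.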
